A study of Homo sapiens with 21 samples.

Results

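Cells of the line HCT-116 given HCC+ extracellular vesicles (EVs) at 1.2 mg/mL were compared with blank cells given no EVs (0 mg/mL), over all genes of the deposited count table. The comparison rests on 6 of the 21 libraries, 3 per group, chosen by their sample labels and not by any measured value. All 21 libraries were fitted together, so the spread behind each p-value comes from all 7 groups. HCC+ EVs came from serum of HCC patients, HCC- EVs came from serum of healthy people, and both had been isolated with the GlyExo-Capture method. Direct contrasts with HCC- EVs at 1.2 mg/mL and with HCC+ EVs at 0.24 mg/mL, 3 libraries each, are given at the end, and EVs at 0.048 mg/mL enter only as levels.

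HCT-116 is a human colorectal carcinoma line that keeps a functional p53 gene. All groups, the blank included, had the same DMEM medium, with 1% antibiotics and with serum at 10% from which exosomes had been removed, and polyA RNA was sequenced. The labels give neither the time of exposure nor the number of serum donors, and whether the 3 libraries of each group had separate cultures is not stated. The p-values therefore measure only the spread between libraries within groups, which may be technical. EVs are membrane-bound particles that carry protein, lipid and RNA, so RNA brought in by the EVs and RNA made by the cells cannot be told apart in these counts.

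Much of what follows concerns the integrated stress response. When amino acids run short or proteins misfold, kinases phosphorylate the initiation factor eIF2, translation of the transcription factor ATF4 rises, and ATF4 with C/EBP partners switches on genes that import amino acids, make serine and asparagine, and charge tRNAs. The promoters of such genes can hold a C/EBP-ATF response element. The promoters of genes that peak in mitosis can hold a cell cycle genes homology region, bound by the DREAM complex, and many lysosomal genes hold an E-box with the letters CACGTG, bound by TFEB, TFE3 and, at other genes, MYC. The promoters below were shown because their genes stand for 3 groups that moved in this comparison. Each of them holds a match, so they do not show how common a match is in its group. They run from 250 bases before to 50 bases after each gene's start, on the gene's strand, from RefSeq on GRCh38.p14, with matches to TGATGNAA for CHAC1, ASNS and IARS1, to TTTGAA for CCNB2 and PLK1, and to CACGTG for NEU1 and MCOLN1 in capitals. Both strands were searched, so a match may stand in capitals as its reverse complement.
CHAC1, chr15:40953221-40953520, plus strand: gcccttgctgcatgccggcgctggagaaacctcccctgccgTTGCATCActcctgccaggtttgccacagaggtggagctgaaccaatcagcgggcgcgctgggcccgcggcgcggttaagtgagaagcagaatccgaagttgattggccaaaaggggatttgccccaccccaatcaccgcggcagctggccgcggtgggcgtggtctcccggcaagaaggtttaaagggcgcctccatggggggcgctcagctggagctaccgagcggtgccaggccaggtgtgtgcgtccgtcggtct
ASNS, chr7:97872359-97872658, minus strand: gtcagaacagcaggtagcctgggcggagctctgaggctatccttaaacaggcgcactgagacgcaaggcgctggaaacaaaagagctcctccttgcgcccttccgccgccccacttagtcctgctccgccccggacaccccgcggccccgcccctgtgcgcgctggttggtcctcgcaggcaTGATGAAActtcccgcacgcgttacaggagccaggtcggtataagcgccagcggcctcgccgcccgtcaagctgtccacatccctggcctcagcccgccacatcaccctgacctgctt
IARS1, chr9:92293648-92293947, minus strand: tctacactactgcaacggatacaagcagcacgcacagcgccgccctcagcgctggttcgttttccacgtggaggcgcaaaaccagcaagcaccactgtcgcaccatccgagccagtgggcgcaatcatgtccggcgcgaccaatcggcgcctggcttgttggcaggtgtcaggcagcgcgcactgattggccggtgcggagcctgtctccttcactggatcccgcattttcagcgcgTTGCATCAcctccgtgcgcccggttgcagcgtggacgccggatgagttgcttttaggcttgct
CCNB2, chr15:59104896-59105195, plus strand: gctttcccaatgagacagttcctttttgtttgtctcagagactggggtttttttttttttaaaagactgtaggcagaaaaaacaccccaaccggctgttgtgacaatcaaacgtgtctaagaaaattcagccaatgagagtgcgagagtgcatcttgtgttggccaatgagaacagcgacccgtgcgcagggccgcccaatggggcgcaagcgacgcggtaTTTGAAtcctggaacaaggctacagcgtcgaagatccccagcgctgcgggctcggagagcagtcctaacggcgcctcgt
PLK1, chr16:23678639-23678938, plus strand: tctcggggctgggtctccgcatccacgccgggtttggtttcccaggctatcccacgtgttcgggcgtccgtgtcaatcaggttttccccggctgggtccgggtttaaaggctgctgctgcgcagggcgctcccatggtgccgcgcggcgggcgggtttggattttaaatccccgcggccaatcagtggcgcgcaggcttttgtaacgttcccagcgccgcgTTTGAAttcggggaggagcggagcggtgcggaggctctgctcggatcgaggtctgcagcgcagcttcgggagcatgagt
NEU1, chr6:31862772-31863071, minus strand: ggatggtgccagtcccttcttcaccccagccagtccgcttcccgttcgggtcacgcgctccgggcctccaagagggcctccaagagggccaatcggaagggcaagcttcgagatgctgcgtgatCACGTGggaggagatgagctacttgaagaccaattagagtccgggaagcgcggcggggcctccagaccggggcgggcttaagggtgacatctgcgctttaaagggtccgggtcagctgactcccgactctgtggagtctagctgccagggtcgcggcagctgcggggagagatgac
MCOLN1, chr19:7522374-7522673, plus strand: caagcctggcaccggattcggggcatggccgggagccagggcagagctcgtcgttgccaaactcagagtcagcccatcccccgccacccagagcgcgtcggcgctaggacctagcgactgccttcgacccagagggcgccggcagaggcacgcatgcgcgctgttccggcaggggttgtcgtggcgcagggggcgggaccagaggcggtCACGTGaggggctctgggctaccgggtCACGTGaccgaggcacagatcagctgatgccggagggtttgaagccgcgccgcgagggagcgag

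The letters TGATGNAA were found in 7 of 32 promoters of the integrated stress response and amino acid list (21.9%) and in 6 of 16 promoters of cytosolic aminoacyl-tRNA synthetases (37.5%), and in 1.75% of the 12607 promoters matched to tested genes. TTTGAA was found in 15 of 23 promoters of the mitosis list (65.2%) and in 10.0% of those 12607 promoters. CACGTG was found in 8 of 20 lysosome promoters (40.0%), in 11 of 25 ribosome biogenesis promoters (44.0%) and in 9.72% of the 12607. Over all genes that moved, TGATGNAA was in 1.33% of 2176 promoters of genes that rose and 2.29% of 2711 of genes that fell, TTTGAA in 8.23% and 12.2%, and CACGTG in 8.27% and 11.5%. CACGTG reads the same on both strands, and none of the 3 motifs contains another. A match is a run of letters and not a measured binding site.

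The HCC+ 1.2 mg/mL libraries held 44103480 to 54737994 counts and the blank libraries 31219343 to 42958433 counts. On the first principal component of all 21 libraries (63.6% of the variance), the HCC+ 1.2 mg/mL libraries stood at -25.35 to -14.81, apart from the 15 libraries at lower doses or blank, at 8.37 to 17.67, and nearer to those than the HCC- 1.2 mg/mL libraries, at -52.84 to -45.98. Replicate 1 of HCC+ 1.2 mg/mL stood farthest out. It was the highest of the 3 libraries for 457 of the 723 genes that rose by at least 1 log2 (63.2%) and the lowest for 77 of the 171 that fell by as much (45.0%). The 10 colon epithelium markers had a summed level of 3970 to 4220 CPM (counts scaled to a common library total) with HCC+ EVs and 3720 to 4520 CPM in the blank, most of it from KRT8, and 1 of 8 tested rose. EPCAM, CDH1 and KRT18 were present in both groups. VIL1, CEACAM5 and LGALS4 were nearly absent, with 21, 8 and 16 counts over the 3 HCC+ libraries and 6, 0 and 4 over the 3 blank libraries.

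19556 genes were high enough in counts to be tested with edgeR's quasi-likelihood test. A gene rose or fell where its p, adjusted by Benjamini and Hochberg over all of these, was under 0.05. With HCC+ EVs at 1.2 mg/mL, 3046 genes rose (15.6%) and 3398 fell (17.4%), together 33.0% of those tested. The counts of the gene lists below are to be read beside these shares. Every HCC+ library lay above every blank library for 3973 tested genes (20.3%) and below for 3838 (19.6%), so a lack of overlap was common. The largest rises and falls named below were chosen with no overlap as a condition. Most changes were small. Of the calls, 3798 were under 0.5 on the log2 scale, and 723 rises (3.7%) against 171 falls (0.874%) reached 1 log2. The filter used all 21 libraries, so genes near 0 in the blank or at lower doses could be tested through groups where they were high. With only the 6 libraries compared, 17045 of the genes were tested. The share of large rises is therefore not free of the filter. The median over all tested genes was 0.01. When libraries were scaled to their total count alone, which moved that median by 0.12, 4657 genes rose and 2069 fell, so the balance between rises and falls depends on the scaling. Levels below are in CPM with TMM scaling, given for replicates 1, 2 and 3 in that order, and log2 fold changes are given with their standard error.

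**Figure D1:**
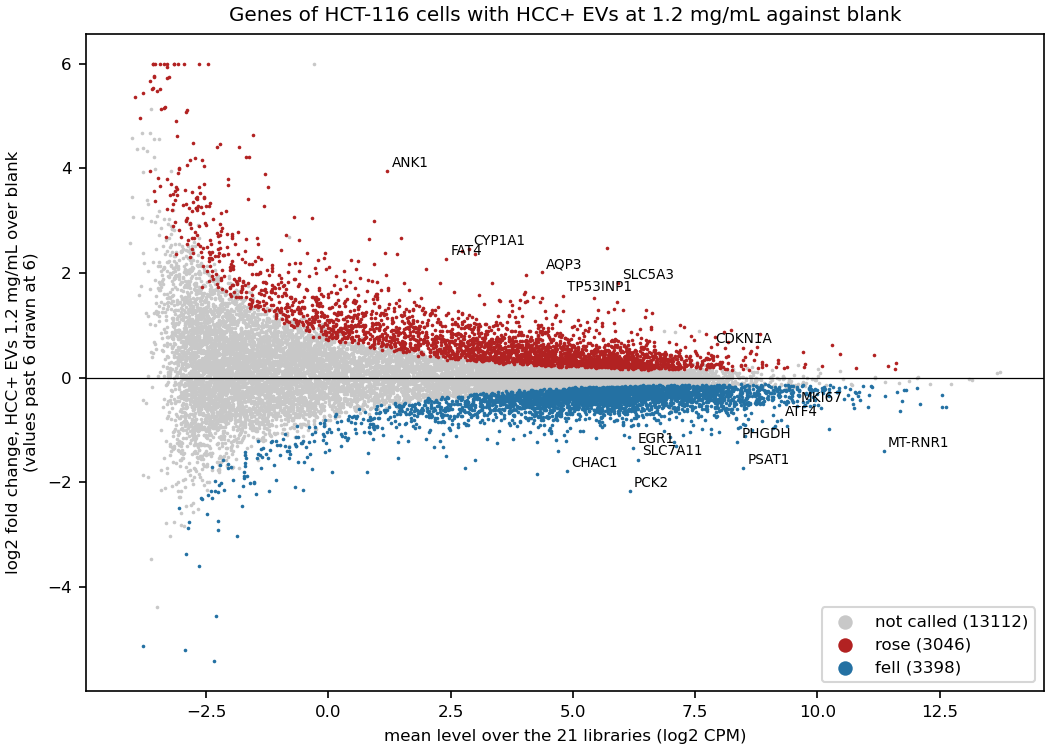
Each point is a tested gene, with its mean level over the 21 libraries (log2 CPM) on the x axis and its log2 fold change, HCC+ EVs at 1.2 mg/mL over blank, on the y axis. Red points rose (3046), blue points fell (3398) and grey points were not called (13112). Named falls such as PCK2 and PSAT1 lie at middle and high levels, and the far rises lie mostly at low levels.

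Falls and rises differed by level and gene type. Among the 4889 tested genes with the highest level, 1879 fell (38.4%) and 740 rose (15.1%). Among the 4889 with the lowest level, 71 fell (1.45%) and 323 rose (6.61%), where only large changes could pass at this depth. Genes near 0 in the blank could be tested through other groups, so these 2 shares are not free of the filter. Protein-coding genes made up most calls, with 2719 rises and 3168 falls among 14344, and long noncoding genes had 239 rises and 159 falls among 3588. On chromosome 19, 267 of 1331 tested genes rose (20.1%) and 146 fell, against 15.6% that rose and 17.4% that fell over all.

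The integrated stress response and amino acid list fell in 30 of 39 tested members and rose in 2, with a median log2 fold change of -0.81. ATF4, the factor at the centre of this response, had 420.3, 374 and 392 CPM with HCC+ EVs, against 684, 742 and 657 CPM in the blank. The groups did not overlap, and all 3 HCC+ libraries were low (-0.81 ± 0.07, adjusted p = 7.42e-11). Its partner CEBPG, with 49.5, 62.5 and 53.5 CPM against 109, 93.9 and 107 CPM, fell by as much (-0.90 ± 0.08). DDIT3 (CHOP), a factor induced by ATF4 that promotes cell death, had 3.16, 3.304 and 3.202 CPM against 9.41, 11.2 and 8.34 CPM. These HCC+ values lay within a narrow band, below every blank library (-1.58 ± 0.23, adjusted p = 7.51e-06).

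Targets that feed back on the pathway or on glutathione had widely spaced values. CHAC1 (ENSG00000128965, chr15:40952962-40956512 on GRCh38), an enzyme that breaks down glutathione and whose promoter is shown above, had 12.8, 8.50 and 8.42 CPM with HCC+ EVs, against 33.1, 40.5 and 28.2 CPM in the blank. All HCC+ libraries were lower, with replicate 1 the highest of them (-1.78 ± 0.19). TRIB3, a pseudokinase that restrains ATF4, had 71.5, 64.3 and 69.95 CPM against 157, 188 and 162 CPM (-1.30 ± 0.10). The secreted stanniocalcin STC2 (-1.22 ± 0.15), the mTORC1 regulator SESN2 (-0.58 ± 0.09) and the repressor JDP2 (-0.52 ± 0.10) fell too. Of the 2 members that rose, the cytokine gene GDF15 had 249.9, 209 and 226 CPM against 118, 159 and 116 CPM (0.80 ± 0.12), and the transporter gene SLC38A2 was at 0.63 ± 0.12. ATF3, a factor induced by many stresses, did not pass (-0.09 ± 0.09, adjusted p = 0.443), and its libraries overlapped. PPP1R15A, the GADD34 subunit that reverses eIF2 phosphorylation and a gene chosen here after its values were seen, had 36.96 ± 2.56 CPM with HCC+ EVs and 37.2 ± 3.13 CPM in the blank (SD, n = 3 each).

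**Figure D2:**
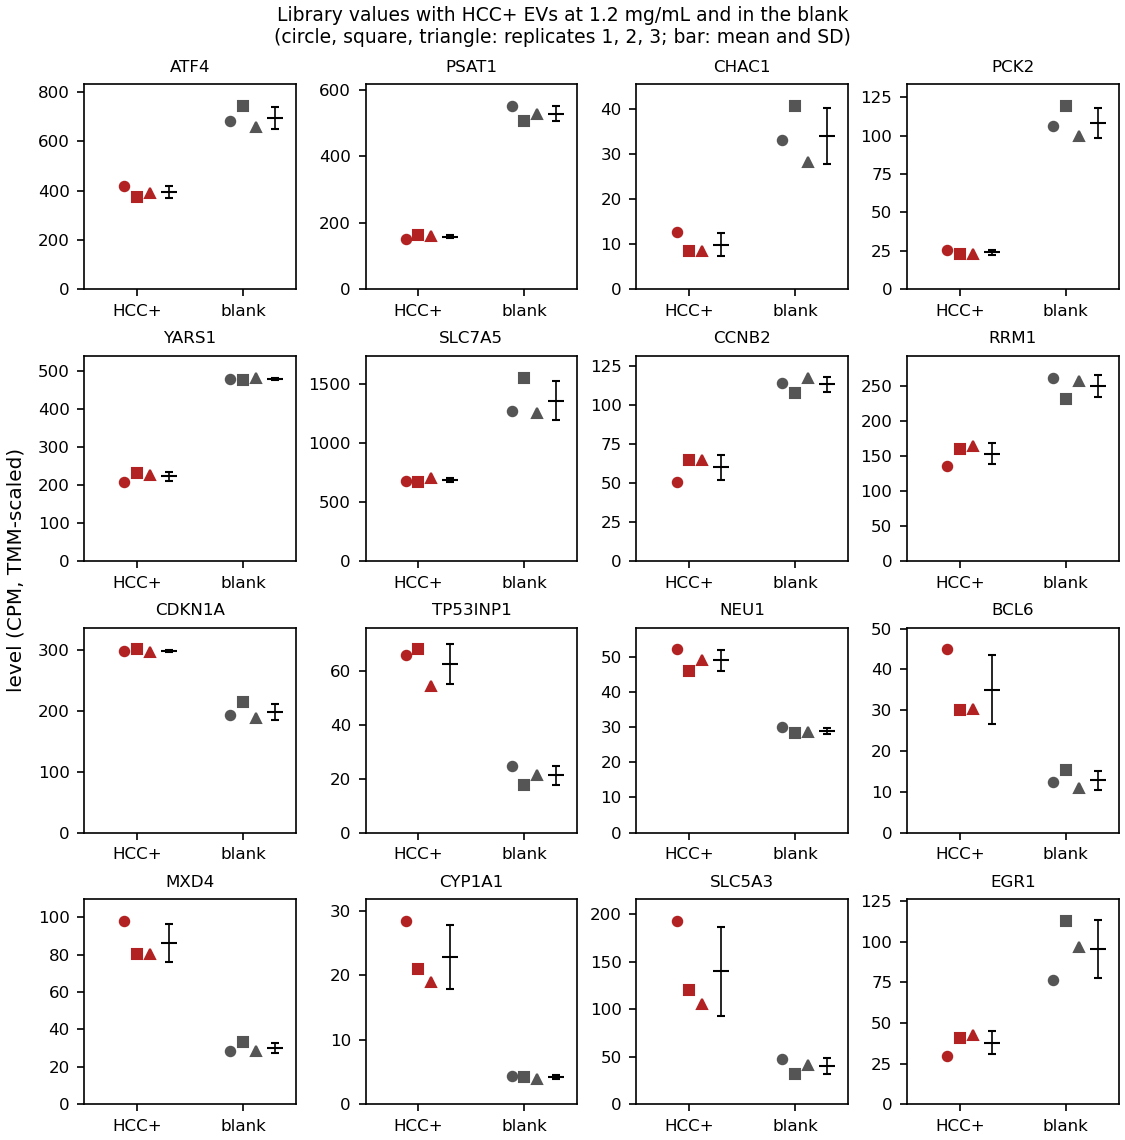
Levels of 16 genes in CPM (linear axes from 0) for the 3 libraries with HCC+ EVs at 1.2 mg/mL, left in each panel, and the 3 blank libraries, right, with the mean and SD as a bar. In all 16 panels the groups do not overlap, and over all tested genes 20.3% were higher and 19.6% lower without overlap. Replicate 1 of HCC+ (circle) is set apart upward for SLC5A3, BCL6, MXD4 and CYP1A1.

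Enzymes that make serine, glycine and folate-bound carbon units fell nearly throughout, with 15 falls and 2 rises among 21 tested members (median -0.59). Serine is made from a glycolytic intermediate in 3 steps. PHGDH, the first, had 176, 168 and 179 CPM with HCC+ EVs and 402, 436 and 386 CPM in the blank (-1.23 ± 0.06). PSAT1, the second (ENSG00000135069, chr9:78297125-78330093 on GRCh38), had 152, 162 and 161 CPM against 551, 506 and 529 CPM, a level of 0.2997 times that of the blank (adjusted p = 1.69e-19). PSPH, the last, fell less (-0.53 ± 0.07). The mitochondrial branch that turns serine into formate fell, with SHMT2 at -0.60 ± 0.06, MTHFD2 at -0.96 ± 0.08 and MTHFD1L at -0.90 ± 0.06. ALDH1L2, a mitochondrial folate enzyme outside that branch, fell too (-1.17 ± 0.17). MTHFD2 had 213, 239.6 and 218 CPM against 467, 409 and 432 CPM, with no overlap.

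The cytosolic branch was divided. MTHFD1, its trifunctional enzyme, fell (-0.59 ± 0.06). SHMT1, the cytosolic counterpart of SHMT2, rose instead, with 82.5, 83.5 and 88.3 CPM with HCC+ EVs and 73.1, 74.2 and 70.1 CPM in the blank, a small difference with no overlap (0.23 ± 0.06, adjusted p = 0.00178). The folate users of nucleotide synthesis fell, with GART at -0.51 ± 0.05, TYMS at -0.40 ± 0.07 and ATIC at -0.26 ± 0.05. GCSH of the glycine cleavage system (-0.68 ± 0.14) and MTHFD2L, a relative of MTHFD2 (-0.76 ± 0.16) also fell. SFXN1, the mitochondrial serine carrier, fell by a margin that was lost without any of 4 single libraries (-0.19 ± 0.07). GLDC (0.01 ± 0.10), FPGS (-0.14 ± 0.08), ALDH1L1 (0.60 ± 0.90) and SLC25A32 (-0.75 ± 0.73) did not pass.

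Other enzymes of amino acid supply followed. ASNS, which makes asparagine (ENSG00000070669, chr7:97851677-97872542 on GRCh38), had 3.22, 2.43 and 2.69 CPM with HCC+ EVs, against 9.58, 9.65 and 8.29 CPM in the blank. Every HCC+ library lay below every blank library (-1.72 ± 0.14). PYCR1 (-0.59 ± 0.07) and ALDH18A1 (-0.38 ± 0.05), which make proline, and GPT2, which makes alanine (-0.81 ± 0.07), fell. CTH, which makes cysteine, did not pass, with 13.7 ± 1.19 CPM and 13.3 ± 0.508 CPM (SD, n = 3 each).

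Amino acid transporters of the plasma membrane went both ways, with 10 falls and 6 rises among 21. The exchanger of large neutral amino acids SLC7A5 had 679.8, 669.7 and 705 CPM with HCC+ EVs and 1272, 1553 and 1255 CPM in the blank (-0.99 ± 0.07). Its heavy chain SLC3A2 (-0.97 ± 0.07), the cationic transporter SLC7A1 (-0.99 ± 0.07), the serine transporter SLC1A4 (-1.23 ± 0.09) and the glutamine transporter SLC1A5 (-0.71 ± 0.07) fell with it. SLC7A11, which imports cystine for glutathione, had 40.2, 38.5 and 35.5 CPM against 128, 91.8 and 119.7 CPM, a fall with no overlap (-1.57 ± 0.13). SLC7A8, another light chain of SLC3A2, moved the opposite way, with 26.1, 23.2 and 24.96 CPM against 9.07, 10.1 and 10.3 CPM (1.33 ± 0.11). The taurine transporter SLC6A6 (0.93 ± 0.09) rose as well.

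The cytosolic aminoacyl-tRNA synthetases, which charge tRNAs, fell in 15 of 20 and rose in 0 (median -0.77), and with scaling to total counts 15 fell and 3 rose. YARS1 had 208, 232 and 227 CPM with HCC+ EVs and 479.6, 476 and 482 CPM in the blank (-1.11 ± 0.06). SARS1 (-1.04 ± 0.07), WARS1 (-0.99 ± 0.06), EPRS1 (-0.89 ± 0.07) and IARS1 (-0.84 ± 0.06), whose promoter is shown above, fell by similar amounts. The mitochondrial synthetases fell in 7 of 17 and rose in 0 (median -0.15). XPOT, which exports tRNAs from the nucleus, fell too (-0.65 ± 0.07).

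PCK2, the mitochondrial enzyme that makes phosphoenolpyruvate and a known ATF4 target (ENSG00000100889, chr14:24094053-24110598 on GRCh38), had the largest fall among tested genes with a mean over 1 log2 CPM. Its level was 25.7, 23.0 and 23.2 CPM with HCC+ EVs and 106, 119 and 99.8 CPM in the blank, 0.221 times the blank (-2.18 ± 0.09, adjusted p = 2.31e-17). NIBAN1, a stress-induced gene tied to translation control, had 8.52, 9.05 and 8.74 CPM against 32.05, 29.1 and 33.3 CPM (-1.84 ± 0.13). Both sets of values were tight within groups and far apart between them. The enzymes around pyruvate moved in both directions. PC, pyruvate carboxylase, rose (0.90 ± 0.10), with 34.3, 25.2 and 30.6 CPM against 15.7, 17.1 and 15.5 CPM, as did PDK4 (1.04 ± 0.18) and PDK2 (0.46 ± 0.08), kinases that switch off pyruvate dehydrogenase. FH (-0.69 ± 0.07), SUCLG2 (-0.78 ± 0.08) and DLST (-0.48 ± 0.06) of the citric acid cycle fell, while OGDH rose (0.61 ± 0.07). Over the list 12 of 27 fell and 5 rose, beside 17.4% and 15.6% over all genes.

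The unfolded protein response answers misfolding in the endoplasmic reticulum. Of 22 of its genes 9 fell and 4 rose, beside 17.4% and 15.6% over all genes. With scaling to total counts 5 fell and 5 rose. Without replicate 1 of HCC+ or blank replicate 3, 1 rose, and without blank replicate 2, 2 rose. The chaperone HSPA5 (BiP) had 873, 882 and 876 CPM with HCC+ EVs and 1102, 1088 and 1104 CPM in the blank, a small fall with no overlap (-0.32 ± 0.05). XBP1 (-0.35 ± 0.07) and HERPUD1 (-0.41 ± 0.07) fell by similar amounts.

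**Figure D3:**
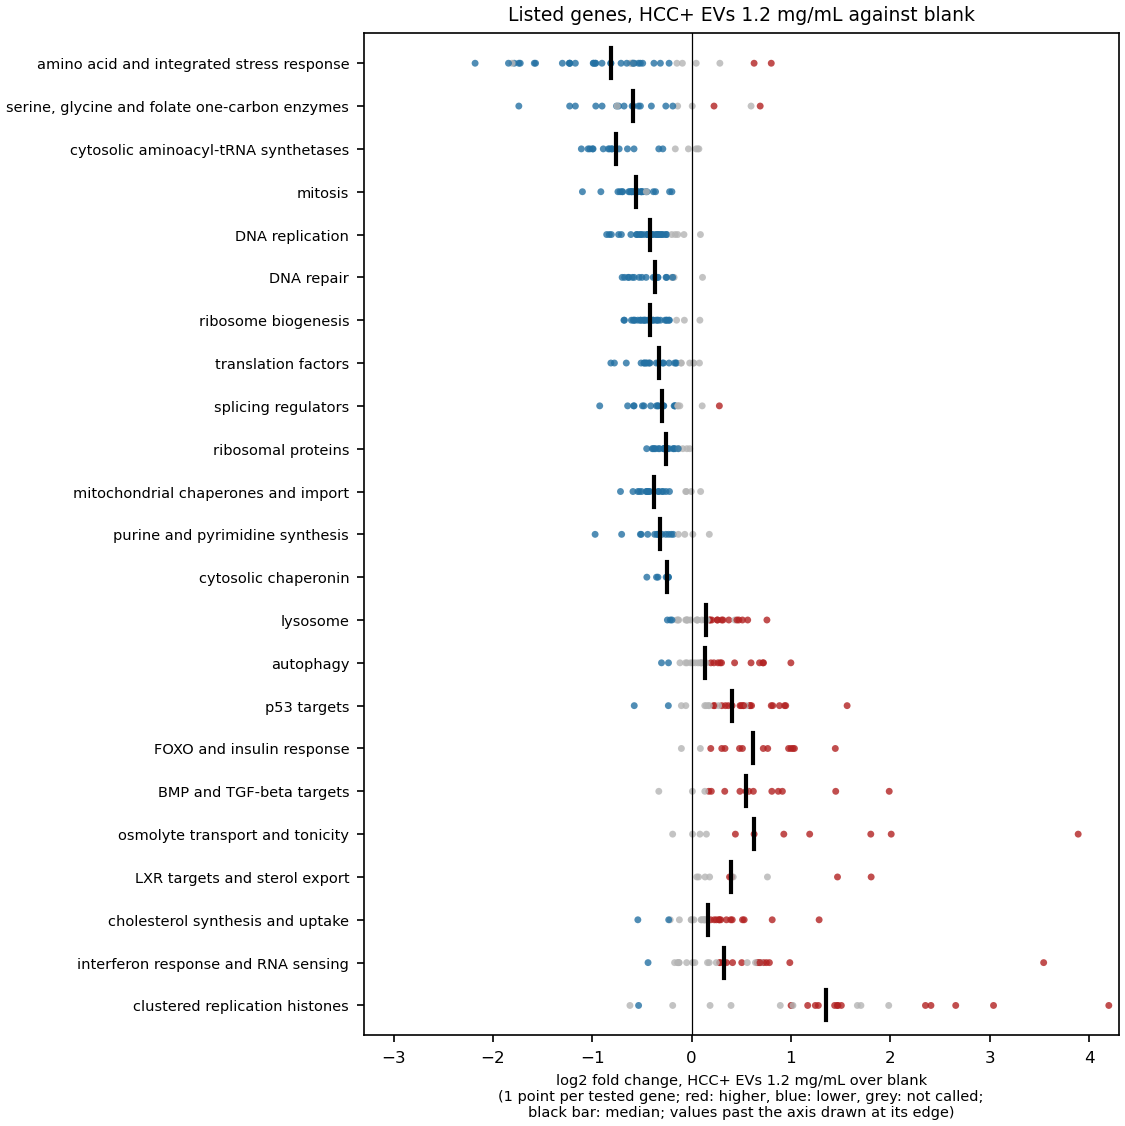
Log2 fold changes, HCC+ EVs at 1.2 mg/mL over blank (x axis), of the tested members of 23 gene lists (rows), with red for members that rose, blue for members that fell, grey for members not called and a black bar at the median. The lists from amino acid response to cytosolic chaperonin have medians below 0, and those from lysosome to replication histones have medians above 0.

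Genes of cell division fell together. Of 28 mitosis genes 27 fell and 0 rose (median -0.56), and PRC1, the remaining member, was at -0.46 ± 0.30. CCNB2, a cyclin of mitotic entry (ENSG00000157456, chr15:59105126-59125045 on GRCh38), had 51.01, 64.6 and 64.9 CPM with HCC+ EVs, against 114, 108 and 118 CPM in the blank. No library overlapped, and replicate 1 of HCC+ was the lowest (-0.91 ± 0.07). PLK1, the mitotic kinase, had 127, 156 and 174 CPM against 213, 250.1 and 233 CPM, again with the lowest value in replicate 1 (-0.61 ± 0.08). HMMR, a spindle protein, fell most in the list (-1.10 ± 0.17), with 32.9, 54.5 and 50.9 CPM against 109, 81.2 and 106 CPM. The fall of TOP2A, -0.36 ± 0.09 with overlapping libraries, was lost without replicate 1 of HCC+, and that of AURKA (-0.22 ± 0.07) without either of 2 single libraries.

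DNA replication genes fell in 33 of 38 and rose in 0 (median -0.41), and with scaling to total counts 30 fell and 1 rose. RRM1, a subunit of ribonucleotide reductase, had 136, 159.8 and 163 CPM with HCC+ EVs and 261, 231 and 257 CPM in the blank (-0.71 ± 0.07). PRIM1, the primase subunit (-0.83 ± 0.10), LIG1, the ligase of the lagging strand (-0.81 ± 0.09), and PCLAF, a PCNA partner (-0.85 ± 0.15), fell more. The helicase subunits MCM2 to MCM7 had log2 fold changes between -0.48 for MCM7 and -0.25 for MCM5, whose call was lost without blank replicate 2. PCNA itself fell by less (-0.28 ± 0.06), and this call was lost when trends with GC content and length were removed. DNA repair genes fell in 18 of 21 and rose in 0 (median -0.36), with FANCD2 at -0.60 ± 0.07 and BRCA1 at -0.36 ± 0.08.

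The regulators of entry into the cycle were mixed, with 12 falls and 4 rises among 26, beside 17.4% and 15.6% over all genes. With scaling to total counts 6 fell and 5 rose. Without replicate 1 of HCC+ 6 fell, and without blank replicate 1 the rises were 2. The kinase CDK4 had 139, 133 and 140.3 CPM with HCC+ EVs and 182, 204 and 177 CPM in the blank (-0.45 ± 0.06). The inhibitors CDKN1C (p57) and CDKN2B (p15) rose. CDKN1C had 14.04, 12.4 and 12.6 CPM against 6.67, 7.92 and 6.09 CPM (0.92 ± 0.14), and CDKN2B had 16.2, 13.8 and 13.6 CPM against 7.95, 8.54 and 9.73 CPM (0.73 ± 0.12). CDKN1B (p27) did not pass, at 38.2 ± 2.94 CPM and 35.9 ± 0.943 CPM (SD, n = 3 each). E2F1, a factor that drives replication genes, had 52.9, 45.3 and 53.5 CPM against 37.4, 46.4 and 40.9 CPM. The groups overlapped, and the call (0.28 ± 0.09) was lost without any of 4 single libraries.

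Targets of p53 rose in 19 of 29 and fell in 2 (median 0.41). p53 responds to DNA damage and other stresses by activating genes that halt the cycle, repair DNA or start apoptosis. Among genes that halt the cycle, CDKN1A (p21) had 298, 301 and 296 CPM with HCC+ EVs and 194, 214 and 188 CPM in the blank, with almost no spread in the HCC+ libraries (0.59 ± 0.06). BTG2, which slows proliferation, had 64.6, 68.02 and 61.2 CPM against 32.05, 34.1 and 34.2 CPM (0.95 ± 0.08). TP53INP1, which promotes p53 activity and autophagy, rose most, with 65.95, 68.1 and 54.3 CPM against 24.8, 17.5 and 21.5 CPM (1.57 ± 0.14, adjusted p = 1.52e-09). The kinases PLK2 (0.59 ± 0.07) and PLK3 (0.50 ± 0.09) and the phosphatase PPM1D, which turns p53 down (0.60 ± 0.07), rose too.

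Among p53 targets in apoptosis and metabolism, BBC3 (PUMA) had 33.3, 24.7 and 28.3 CPM with HCC+ EVs and 15.9, 16.6 and 12.6 CPM in the blank (0.94 ± 0.11). BAX (0.49 ± 0.07), PHLDA3, which blocks AKT (0.82 ± 0.10), the oxidoreductase TP53I3 (0.88 ± 0.12) and TIGAR, which slows glycolysis (0.52 ± 0.14), rose. Repair genes rose by less, with DDB2 at 0.41 ± 0.08 and POLH at 0.37 ± 0.08, while XPC (0.17 ± 0.07) and RRM2B (0.27 ± 0.13) did not pass. SUSD6 (0.53 ± 0.10) and ZMAT3 (0.34 ± 0.10) rose. MDM2, which degrades p53, had 123, 133 and 113 CPM against 115, 92.96 and 106 CPM, and its groups overlapped (0.23 ± 0.08). The calls for MDM2, SESN1 (0.30 ± 0.11), FDXR (0.22 ± 0.07), TRIAP1 (-0.23 ± 0.08), TIGAR and ZMAT3 were each lost without at least 1 single library. The 2 members that fell were SESN2, which ATF4 also drives, and TRIAP1. FAS (-0.06 ± 0.12), GADD45A (-0.10 ± 0.09), TNFRSF10B (0.13 ± 0.05), AEN (0.15 ± 0.06), CCNG1 (0.18 ± 0.09) and SPATA18 (0.55 ± 0.27) did not pass.

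In the BCL2 family, 6 of 15 rose and 3 fell, beside 15.6% and 17.4% over all genes. BMF, an activator of apoptosis, was low in both groups, with 4.01, 3.76 and 2.42 CPM with HCC+ EVs and 1.56, 0.664 and 1.52 CPM in the blank (1.46 ± 0.31). BCL2L1, which protects cells (BCL-XL), rose slightly (0.28 ± 0.07), and MCL1, which also protects cells, fell by a margin lost without any of 4 single libraries (-0.17 ± 0.06).

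Genes that FOXO factors switch on when insulin signalling is low rose in 12 of 14 and fell in 0 (median 0.62). BCL6, a repressor, had 44.9, 30.1 and 30.2 CPM with HCC+ EVs and 12.3, 15.4 and 10.8 CPM in the blank (1.45 ± 0.14). CCNG2, a cyclin that holds back the cycle, had 30.9, 40.3 and 36.8 CPM against 18.9, 15.01 and 19.5 CPM (1.02 ± 0.12). SESN3 (1.00 ± 0.16), CITED2 (0.77 ± 0.07), the ubiquitin ligase subunit FBXO32 (0.98 ± 0.17), the insulin receptor INSR (0.34 ± 0.07) and its substrate IRS2 (0.48 ± 0.14) rose, the last losing its call when GC and length trends were removed. In none of these did the libraries of the groups overlap. Of 15 ERBB receptor, MET and ligand genes, 7 rose and 0 fell, all by under 0.5, with ERBB2 at 0.39 ± 0.09 and the substrate IRS1 at 0.42 ± 0.07.

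Genes that build and run ribosomes fell. Ribosome biogenesis fell in 27 of 30 and rose in 0 (median -0.41). MRTO4, an assembly factor of the large subunit, had 86.8, 92.9 and 95.2 CPM with HCC+ EVs and 149, 147 and 144 CPM in the blank (-0.68 ± 0.06). NCL, nucleolin, had 1588, 1807 and 1720.0 CPM against 2595, 2463 and 2528 CPM, with no overlap (-0.57 ± 0.06). DDX21 (-0.68 ± 0.07) and RRS1 (-0.61 ± 0.07) fell as much. Translation factors fell in 18 of 25 and rose in 0 (median -0.33), with EIF2S2, a subunit of eIF2, at -0.66 ± 0.06 and the translation repressor EIF4EBP1, an ATF4 target, at -0.78 ± 0.09. EIF3C (-0.81 ± 0.11) has a near-identical copy, EIF3CL, so its value is uncertain. Ribosomal protein genes fell in 24 of 28 by small amounts (median -0.25), and in 13 of 28 with scaling to total counts.

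Genes of RNA processing fell in part. Splicing regulators fell in 16 of 21 and rose in 1 (median -0.30), with SRSF3 at -0.92 ± 0.06 and SRSF7 at -0.64 ± 0.06, and CLK3 as the rise (0.28 ± 0.07). Host genes of small nucleolar RNAs fell in 12 of 17 and rose in 1 (median -0.32). GAS5 had 140.2, 146 and 149 CPM with HCC+ EVs and 207, 187 and 208 CPM in the blank (-0.47 ± 0.06). All 8 subunits of the cytosolic chaperonin fell (median -0.25), and 4 of 8 did with scaling to total counts. The mitochondrial chaperones and import genes fell in 16 of 20, led by TIMM10 (-0.72 ± 0.10) and HSPD1 (-0.59 ± 0.07). Of 15 heat shock genes 6 fell and 0 rose (median -0.13), and with scaling to total counts 4 fell and 2 rose. HSP90AA1, a cytosolic chaperone of that list, had 3284, 4132 and 3857 CPM against 5706, 4901 and 5395 CPM (-0.51 ± 0.07). Of 18 genes for making purines and pyrimidines, 14 fell and 0 rose, with DHODH at -0.97 ± 0.10 and ADSL at -0.70 ± 0.11.

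Of 25 nuclear genes for oxidative phosphorylation, 17 fell and 0 rose (median -0.26), and with scaling to total counts 12 fell and 1 rose. ATP5MC1, the ring subunit of ATP synthase, had 58.99, 63.03 and 70.4 CPM with HCC+ EVs and 95.8, 115 and 104 CPM in the blank (-0.71 ± 0.08). Subunits of complex I, NDUFA10 (-0.59 ± 0.06) and NDUFV1 (-0.55 ± 0.08), and cytochrome c, CYCS (-0.60 ± 0.10), fell as well. Proteasome subunits fell in 13 of 27 and rose in 0, and in 6 with 3 rises with scaling to total counts, with PSMB1 at -0.51 ± 0.06. Glycolysis and hypoxia genes showed 4 rises and 6 falls among 30, beside 15.6% and 17.4% over all genes. The falls were 2 with scaling to total counts, 1 without replicate 1 of HCC+ or blank replicate 2, and 3 without replicate 2 of HCC+ or blank replicate 3. Single members were GAPDH at -0.45 ± 0.08, PKM at 0.28 ± 0.06 and HK1 at 0.32 ± 0.08. In fatty acid oxidation, the mitochondrial CPT2 (-0.59 ± 0.10) and ETFDH (-0.43 ± 0.08) fell, while the receptor PPARA that induces this pathway rose (0.59 ± 0.10), among 5 falls and 6 rises in 18, with 3 falls under scaling to total counts and 3 rises without blank replicate 3. Of the Polycomb and DNA methylation genes, 6 of 15 fell and 1 rose, with EZH2 at -0.36 ± 0.07 and DNMT3B at -0.38 ± 0.08.

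MYC, which drives ribosome genes, had 363, 362 and 362 CPM with HCC+ EVs and 422, 489 and 409 CPM in the blank, a fall with no overlap (-0.28 ± 0.06). Among 13 genes of the MYC, MXD and glucose sensing list 4 rose and 3 fell (median -0.02), beside 15.6% and 17.4% over all genes. The MYC antagonists MXD4 and MXD1 rose. MXD4 (ENSG00000123933, chr4:2247432-2262109 on GRCh38) had 97.96, 80.3 and 80.4 CPM against 28.6, 33.1 and 28.6 CPM (1.52 ± 0.11, adjusted p = 5.13e-12), and MXD1 had 11.1, 11.9 and 10.7 CPM against 6.23, 5.74 and 5.39 CPM (0.96 ± 0.14).

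Lysosome genes rose in 13 of 32 and fell in 3 (median 0.14). NEU1, a lysosomal sialidase, had 52.1, 46.1 and 49.1 CPM with HCC+ EVs and 29.99, 28.5 and 28.6 CPM in the blank (0.76 ± 0.07). MCOLN1, the calcium channel of the lysosome, had 23.3, 22.6 and 26.6 CPM against 16.6, 17.8 and 14.7 CPM (0.57 ± 0.09). The groups did not overlap for either, and both promoters hold the E-box printed above, as did 8 of 20 promoters of this list. The protease gene CTSD (0.51 ± 0.09) and the factor TFE3, which binds that E-box (0.46 ± 0.08), rose. TFEB rose by a margin lost without either of 2 single libraries (0.48 ± 0.15). The hydrolase genes GUSB (-0.24 ± 0.08) and ASAH1 (-0.20 ± 0.07) fell, and each lost the call without replicate 1 of HCC+.

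Autophagy genes rose in 11 of 25 and fell in 2. The receptor OPTN had 36.0, 32.8 and 31.1 CPM with HCC+ EVs and 18.4, 15.1 and 16.5 CPM in the blank (1.00 ± 0.10). The starting kinase ULK1 (0.72 ± 0.10), the lipid transfer protein ATG2A (0.72 ± 0.10), GABARAPL1 (0.68 ± 0.08) and WIPI1 (0.60 ± 0.10) rose, whereas ATG5 (-0.23 ± 0.08) and ATG7 (-0.30 ± 0.10) fell, calls that were lost without replicate 1 of HCC+. Of 22 genes of vesicle release and tetraspanins, proteins that EVs carry, 4 rose and 3 fell, beside 15.6% and 17.4% over all genes, and with scaling to total counts 8 rose and 0 fell. The rises were SDCBP (syntenin, 0.65 ± 0.07), the tetraspanins CD9 (0.42 ± 0.06) and CD82 (0.67 ± 0.13), and RAB27B, which docks vesicles for release (0.78 ± 0.19). The falls were small, at -0.21 ± 0.06 for PDCD6IP (ALIX), -0.18 ± 0.05 for RAB7A and -0.22 ± 0.06 for the annexin ANXA2. The call of PDCD6IP was also lost without either of 2 single libraries.

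In sterol metabolism, the cholesterol exporters that LXR receptors induce rose. ABCG1 had 8.39, 5.83 and 5.47 CPM with HCC+ EVs and 1.69, 1.97 and 1.92 CPM in the blank (1.81 ± 0.22). ABCA1 had 2.94, 2.06 and 1.68 CPM against 0.440, 0.738 and 1.17 CPM, with replicate 1 of HCC+ again the highest (1.47 ± 0.34). The list of LXR targets and sterol export rose in 4 of 10 and fell in 0, and 8 rose with scaling to total counts. Of 26 genes for making or taking up cholesterol, 13 rose and 2 fell (median 0.16). TM7SF2, a sterol reductase (0.81 ± 0.09), INSIG1, which restrains the SREBP factors (0.53 ± 0.09), and LSS, lanosterol synthase (0.51 ± 0.08), rose. FASN, the fatty acid synthase, had 2921, 2682 and 3012 CPM against 1834, 2540.0 and 2001 CPM (0.43 ± 0.09).

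Targets of BMP and TGF-beta rose in 12 of 16 and fell in 0 (median 0.55), and 7 rose without blank replicate 3. The ligand BMP4 had 427, 370.5 and 403 CPM with HCC+ EVs and 227, 228 and 200.1 CPM in the blank (0.87 ± 0.09). ID3, a direct BMP target that blocks differentiation factors, had 80.3, 57.6 and 66.1 CPM against 34.9, 38.4 and 34.9 CPM (0.91 ± 0.10). All HCC+ libraries were above all blank libraries for both genes. ID1 (0.33 ± 0.07), the decoy receptor BAMBI (0.81 ± 0.12) and the inhibitory SMAD7 (0.49 ± 0.14, a call lost once GC and length trends were removed) rose. Of 14 Wnt targets 7 rose and 2 fell, beside 15.6% and 17.4% over all genes. The feedback inhibitors RNF43 (0.42 ± 0.08), NOTUM (1.02 ± 0.17) and AXIN2 (0.29 ± 0.09) rose, the last call being lost without any of 3 single libraries. EGR1, an immediate early gene of growth signals, had 29.6, 40.7 and 42.8 CPM against 76.7, 113 and 96.9 CPM, with all HCC+ libraries below all blank libraries (-1.34 ± 0.21). FOS, another such gene, did not pass (-0.28 ± 0.17).

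NRF2 targets divided by gene, with 9 falls and 7 rises among 22, and 5 falls with scaling to total counts. The quinone reductase NQO1 had 354, 375 and 371 CPM with HCC+ EVs and 537, 526 and 478 CPM in the blank (-0.49 ± 0.06), and TXN fell by the same (-0.47 ± 0.07). HMOX1, heme oxygenase, rose (0.41 ± 0.09). AKR1C1, AKR1C2 and AKR1C3 rose, with AKR1C1 at 1.44, 1.22 and 0.778 CPM against 0.339, 0.172 and 0.249 CPM (2.19 ± 0.46), but they share most of their sequence and their counts cannot be assigned with certainty. CYP1A1, the main target of the aryl hydrocarbon receptor (ENSG00000140465, chr15:74719542-74725536 on GRCh38), had 28.4, 20.9 and 19.0 CPM with HCC+ EVs and 4.43, 4.21 and 3.84 CPM in the blank (2.45 ± 0.17, adjusted p = 1.89e-12). Of the 9 tested genes of that receptor's list 2 rose and 1 fell, the other rise being the receptor gene AHR (0.35 ± 0.13, a call lost without any of 4 single libraries) and the fall NQO1. Over all genes 15.6% rose and 17.4% fell. With scaling to total counts 4 of the 9 rose. TIPARP (0.11 ± 0.06) and CYP1B1 (0.30 ± 0.23), did not pass. MT1E (-1.13 ± 0.16) and MT2A (-1.08 ± 0.18), zinc-binding metallothioneins of a family with near-identical members, fell. Among 7 tested metallothionein and zinc response genes 2 fell and 0 rose, beside 17.4% and 15.6% over all genes.

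Genes that bring osmolytes and water into cells rose in 7 of 11 and fell in 0 (median 0.63). SLC5A3, the myo-inositol transporter, had 192, 120.4 and 106 CPM with HCC+ EVs and 47.8, 31.4 and 40.9 CPM in the blank (1.80 ± 0.21). AQP3, a channel for water and glycerol, had 66.5, 42.9 and 43.3 CPM against 14.9, 13.8 and 9.41 CPM (2.01 ± 0.22). For both, replicate 1 of HCC+ stood well above the other 2, and all 3 were above the blank. SLC5A3 lies within MRPS6, so reads of the overlap may be shared. The kinase gene SGK1, induced by salt and steroids, rose as well (1.19 ± 0.16). The rise of AKR1B1, which makes sorbitol, was small (0.44 ± 0.15) and lost without any of 4 single libraries.

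TFRC, the transferrin receptor, had 514, 576 and 539 CPM with HCC+ EVs and 411, 313 and 359 CPM in the blank (0.59 ± 0.07). All HCC+ libraries were higher. FTL, the ferritin light chain, fell slightly (-0.21 ± 0.06), a call that was lost with scaling to total counts. Among 14 iron handling genes 5 rose and 2 fell, beside 15.6% and 17.4% over all genes. With scaling to total counts 7 rose and 1 fell, and 3 rose with only the groups compared or without blank replicate 3.

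Interferon response and RNA sensing genes rose in 14 of 30 and fell in 1 (median 0.32). RIGI, a sensor of viral RNA, had 20.1, 22.9 and 20.1 CPM with HCC+ EVs and 14.9, 10.4 and 11.6 CPM in the blank (0.78 ± 0.13). IFIT1 (0.68 ± 0.16), IFI6 (0.51 ± 0.14) and ISG15 (0.29 ± 0.07) rose. NFKBIA, the inhibitor that NF-kB itself induces, had 62.5, 43.5 and 38.4 CPM against 23.02, 20.2 and 16.7 CPM (1.27 ± 0.18). Among 15 NF-kB targets and chemokines 4 rose and 1 fell, beside 15.6% and 17.4% over all genes, and 8 rose with scaling to total counts. Of 16 genes of class I antigen presentation, 6 rose and 2 fell, beside 15.6% and 17.4% over all genes. HLA-E (0.45 ± 0.07), the peptide transporter TAP1 (0.54 ± 0.09), the loading factor TAPBP (0.66 ± 0.07) and the activator NLRC5 (0.63 ± 0.14) rose. TAP2, the partner of TAP1 (-0.27 ± 0.09), and B2M, the light chain of class I (-0.19 ± 0.07), fell. Both falls were lost with scaling to total counts and without replicate 1 of HCC+ or blank replicate 1. That of B2M was also lost without replicate 3 of HCC+ or with GC and length trends removed.

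Markers of other cell types were counted beside these genes. Of 12 leukocyte markers 6 were tested and 4 rose, with a summed level of 4.85 to 6.29 CPM with HCC+ EVs and 1.96 to 2.82 CPM in the blank, and with S100A8 and S100A9 at 0. HLA-DRA of the class II complex had 2.92, 2.502 and 2.44 CPM with HCC+ EVs and 1.29, 1.28 and 0.898 CPM in the blank (1.19 ± 0.31). The endothelial marker PECAM1 had 242 counts over the 3 HCC+ libraries and 9 over the 3 blank libraries (2.06, 1.64 and 1.06 CPM against 0.169, 0.0246 and 0.0749 CPM), too few in the blank for a fold change. VWF, another, had 1.22, 1.26 and 1.52 CPM against 0.271, 0.566 and 0.449 CPM (1.60 ± 0.35). COL1A1, a collagen of fibroblasts, had 30.7, 21.3 and 26.0 CPM against 14.2, 17.7 and 14.4 CPM (0.75 ± 0.11). All 4 genes had higher values in every HCC+ library than in any blank library. Of 8 endothelial markers 6 were tested and 4 rose (47.4 to 56.4 CPM against 36.7 to 46.1 CPM). Of 8 fibroblast markers 3 were tested and 2 rose (24.1 to 34.5 against 16.0 to 19.6 CPM, with DCN and LUM at 0). Of 11 hepatocyte markers 4 were tested and 1 rose (3.4 to 4.38 against 2.5 to 2.93 CPM, with FGB, APOB and AFP at 0). Over all genes 15.6% rose and 17.4% fell. Markers near 0 in the blank, such as PECAM1, could be tested through other groups, so these counts are not free of the filter. Of 8 erythroid markers none was called (0.460 to 0.955 against 0.0677 to 0.299 CPM), and of 8 platelet markers 1 fell (20.5 to 22.2 against 27.5 to 31.7 CPM, PPBP and PF4 at 0). Several sums came mostly from 1 member. The endothelial sum came from EGFL7 (7486 counts over the 3 HCC+ and 4410 over the 3 blank libraries) and the fibroblast sum from COL1A1 (4011 and 1718). SERPINA1 made up most of the hepatocyte sum (451 and 217), and NRGN most of the platelet sum (2452 and 2617). The platelet marker ITGA2B had 317 and 151 counts. HLA-DRA, the highest of the leukocyte markers, had 405 and 126 counts. All libraries came from the line HCT-116, so these sums are not counts of cells of the named types. Whether RNA carried by the EVs takes part in these values was not tested.

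Genes of epithelial junctions and matrix were mixed. CLDN4, a claudin of tight junctions, had 264, 191 and 214 CPM with HCC+ EVs and 109, 130.5 and 104 CPM in the blank (0.96 ± 0.12). The junction protein TJP3 (0.93 ± 0.10) and the laminin chains LAMB3 (0.89 ± 0.10) and LAMA3 (0.87 ± 0.10) rose, and CLDN7 (-0.59 ± 0.08) and the integrin ITGB1 (-0.52 ± 0.06) fell.

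Replication histone genes rose in 13 of 24 and fell in 1 (median 1.36). H2BC5 had 22.2, 16.5 and 16.1 CPM with HCC+ EVs and 3.45, 3.62 and 3.22 CPM in the blank (2.41 ± 0.17), and H2AC6 had 31.5, 20.3 and 18.6 CPM against 5.18, 3.99 and 4.64 CPM (2.35 ± 0.17). Replication histone mRNAs mostly end in a stem-loop and lack a poly(A) tail, the libraries were made from polyA RNA, and clustered copies are near-identical, so these levels cover only the captured part. NEAT1, the long noncoding RNA of paraspeckles, had 147, 134 and 129 CPM against 68.98, 63.6 and 78.03 CPM (0.96 ± 0.09). MT-RNR1, the mitochondrial small ribosomal RNA, had 1531, 1467 and 1329 CPM against 4170.0, 3638 and 3715 CPM (-1.41 ± 0.16), and MT-RNR2 fell by less (-0.56 ± 0.07). How much the capture of weakly adenylated RNA contributes was not tested. The mitochondrially encoded mRNAs showed 2 falls and 0 rises among 13, beside 17.4% and 15.6% over all genes. Once GC and length trends were removed they showed 0 falls and 5 rises.

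Several of the largest rises among genes over 1 log2 CPM lay outside these lists. ANK1, a membrane skeleton protein, had 17.97, 10.6 and 10.7 CPM with HCC+ EVs and 0.880, 0.935 and 0.724 CPM in the blank, 15.4 times the blank (3.95 ± 0.62). FAT4, an atypical cadherin, had 16.8, 13.9 and 13.7 CPM against 4.299, 2.66 and 2.45 CPM (2.26 ± 0.20). BFSP1, a filament protein known from the lens, had 47.4, 36.5 and 37.98 CPM against 12.1, 10.1 and 9.41 CPM (1.95 ± 0.13). None of these overlapped between groups, which was a condition of the rule that named them. INPP5D, a lipid phosphatase known from blood cells (1.96 ± 0.25), the methyltransferase-like METTL7A (2.06 ± 0.21), MAGEB17 (2.38 ± 0.25) and CYP4F3, whose family members are alike in sequence (2.37 ± 0.20), rose. The unnamed gene ENSG00000250920 had 201, 144 and 139.8 CPM against 34.9, 26.2 and 25.8 CPM (2.48 ± 0.32). Falls outside the lists were UPP1, uridine phosphorylase (-1.40 ± 0.24), the protease inhibitor CSTA (-1.49 ± 0.16), ELFN1 (-1.32 ± 0.16) and the noncoding CASC2 (-1.53 ± 0.26) and DLEU2 (-1.32 ± 0.20).

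The source of the EVs was then set against the dose. HCC+ EVs at 1.2 mg/mL against HCC- EVs at the same dose gave 4411 higher genes (22.6%) and 2490 lower genes (12.7%), together 35.3%, of which 239 higher (1.22%) and 593 lower (3.03%) reached 1 log2, or 2342 higher and 4572 lower with scaling to total counts. All 38 replication genes were higher with HCC+ than with HCC- EVs (median 1.04, against 0.01 over all tested genes). RRM1 averaged 153 ± 15.1 CPM with HCC+ and 77.2 ± 4.18 CPM with HCC- EVs (0.99 ± 0.07), both below the blank. The replication factor GINS2 (1.59 ± 0.07) differed by more. Mitosis genes were higher in 20 of 28 and lower in 1 (median 0.47), with the spindle protein HMMR at 0.89 ± 0.17 and the proliferation marker MKI67 at 0.45 ± 0.06. E2F1 averaged 50.6 ± 4.54 CPM with HCC+ and 17.8 ± 1.88 CPM with HCC- EVs (1.51 ± 0.09).

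The amino acid response split by gene between the sources. PSAT1 (-0.01 ± 0.06), PCK2 (0.02 ± 0.09) and TRIB3 (-0.20 ± 0.10) did not pass the test between HCC+ and HCC- EVs. CHAC1 averaged 9.898 ± 2.49 CPM with HCC+ EVs, 32.7 ± 9.35 CPM with HCC- EVs and 33.95 ± 6.21 CPM in the blank (SD, n = 3 each), so that it was lower with HCC+ than with HCC- EVs (-1.73 ± 0.19, adjusted p = 6.96e-07). DDIT3 (-1.01 ± 0.23), ATF3 (-0.93 ± 0.08), ASNS (-0.85 ± 0.14), PPP1R15A (-0.66 ± 0.08), SLC3A2 (-0.48 ± 0.07) and ATF4 itself (-0.43 ± 0.07) were lower as well. Folate and tRNA enzymes went the other way, with MTHFD1 (0.82 ± 0.06), IARS1 (0.73 ± 0.06) and MTHFD2 (0.44 ± 0.07) higher with HCC+ EVs, and NIBAN1 (0.79 ± 0.13) with them.

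**Figure D4:**
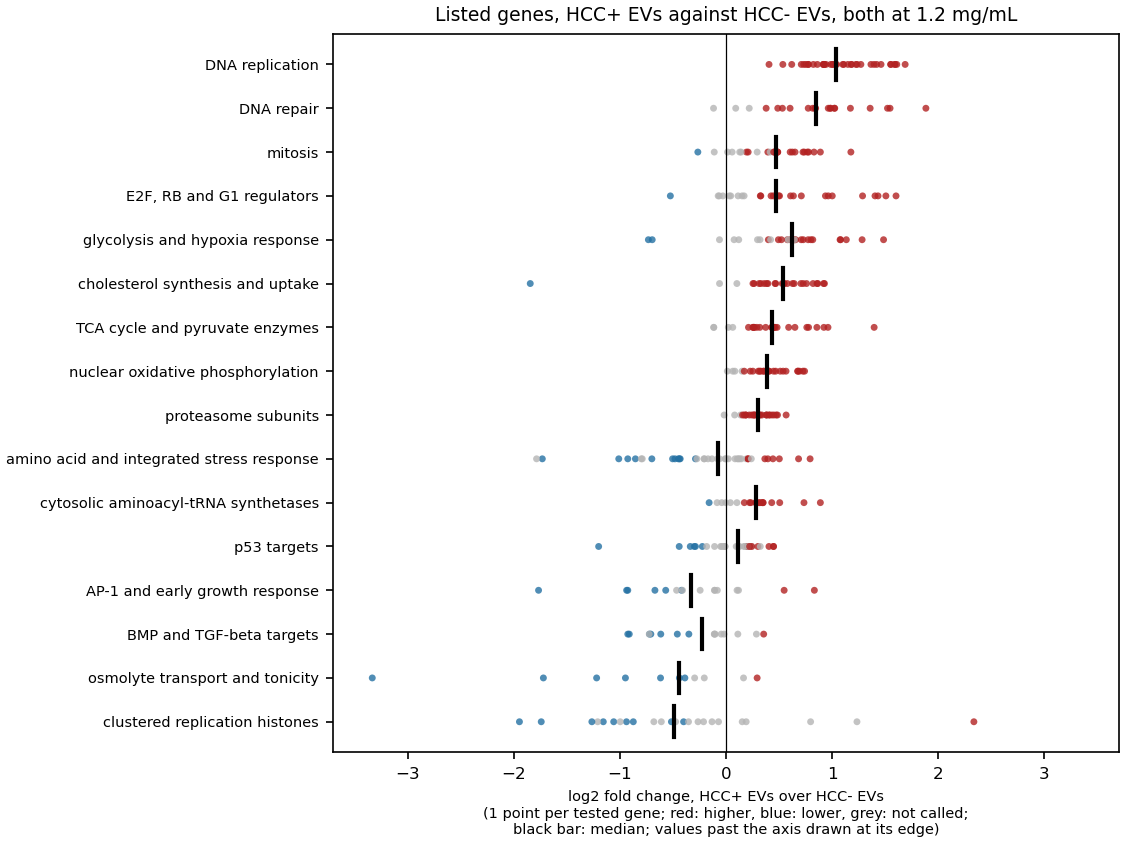
Log2 fold changes of the tested members of 16 lists, HCC+ EVs over HCC- EVs, both at 1.2 mg/mL (x axis), with red for higher, blue for lower and grey for not called, and a black bar at the median. All 38 DNA replication genes lie above 0, while osmolyte and replication histone genes have medians below 0.

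Osmolyte genes were lower with HCC+ than with HCC- EVs in 7 of 11 and higher in 1, with SLC5A3 averaging 139.6 ± 46.4 CPM with HCC+ and 325 ± 65.3 CPM with HCC- EVs (-1.22 ± 0.20). AKR1B1 averaged 88.6 ± 18.8 CPM with HCC+ and 292 ± 89.4 CPM with HCC- EVs (-1.72 ± 0.16). Of 29 p53 targets 8 were higher and 6 lower with HCC+ than with HCC- EVs (median 0.11), beside 22.6% and 12.7% over all genes. TP53I3 (-1.20 ± 0.12) and BBC3 (-0.44 ± 0.10) were lower with HCC+ EVs, and BTG2 (0.40 ± 0.08) was higher. Cholesterol genes were higher in 23 of 26 and lower in 1, with INSIG1 at 0.64 ± 0.08. BCL6 (-0.89 ± 0.13) and NEAT1 (-0.75 ± 0.09) were lower with HCC+ EVs, while the values for CYP1A1 (-0.16 ± 0.14) and FAT4 (-0.09 ± 0.17) did not pass.

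The step in dose of HCC+ EVs, 1.2 against 0.24 mg/mL, gave 2681 higher genes (13.7%) and 3023 lower genes (15.5%), together 29.2%, of which 581 higher (2.97%) and 135 lower (0.69%) reached 1 log2, or 4072 higher and 1794 lower with scaling to total counts. It uses the same HCC+ 1.2 mg/mL libraries as the comparison with the blank, so the values are given side by side only. PSAT1 was at -1.61 ± 0.06 against 0.24 mg/mL and -1.74 ± 0.06 against the blank, and PCK2 was at -2.16 ± 0.09 and -2.18 ± 0.09. By rising dose, PCK2 averaged 108 ± 9.82 CPM in the blank, 108 ± 7.52 CPM at 0.048, 107 ± 4.54 CPM at 0.24 and 23.9 ± 1.49 CPM at 1.2 mg/mL (SD, n = 3 each), so the first 3 groups lay close together. TP53INP1 was at 1.59 ± 0.13 and 1.57 ± 0.14, and MXD4 at 1.47 ± 0.11 and 1.52 ± 0.11.

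TFRC did not pass at the last step of dose. It averaged 361 ± 49.1 CPM in the blank, 471 ± 13.3 CPM at 0.048, 529 ± 38.5 CPM at 0.24 and 543 ± 31.1 CPM at 1.2 mg/mL (SD, n = 3 each), and 1.2 against 0.24 mg/mL gave 0.04 ± 0.07 (adjusted p = 0.736). GDF15 was at 0.48 ± 0.12 against 0.24 mg/mL and 0.80 ± 0.12 against the blank. EGR1 was at -1.76 ± 0.21 and -1.34 ± 0.21, and DDIT4, a stress-induced inhibitor of mTORC1, at -1.18 ± 0.28 and -0.59 ± 0.28, the second of which did not pass.

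**Figure D5:**
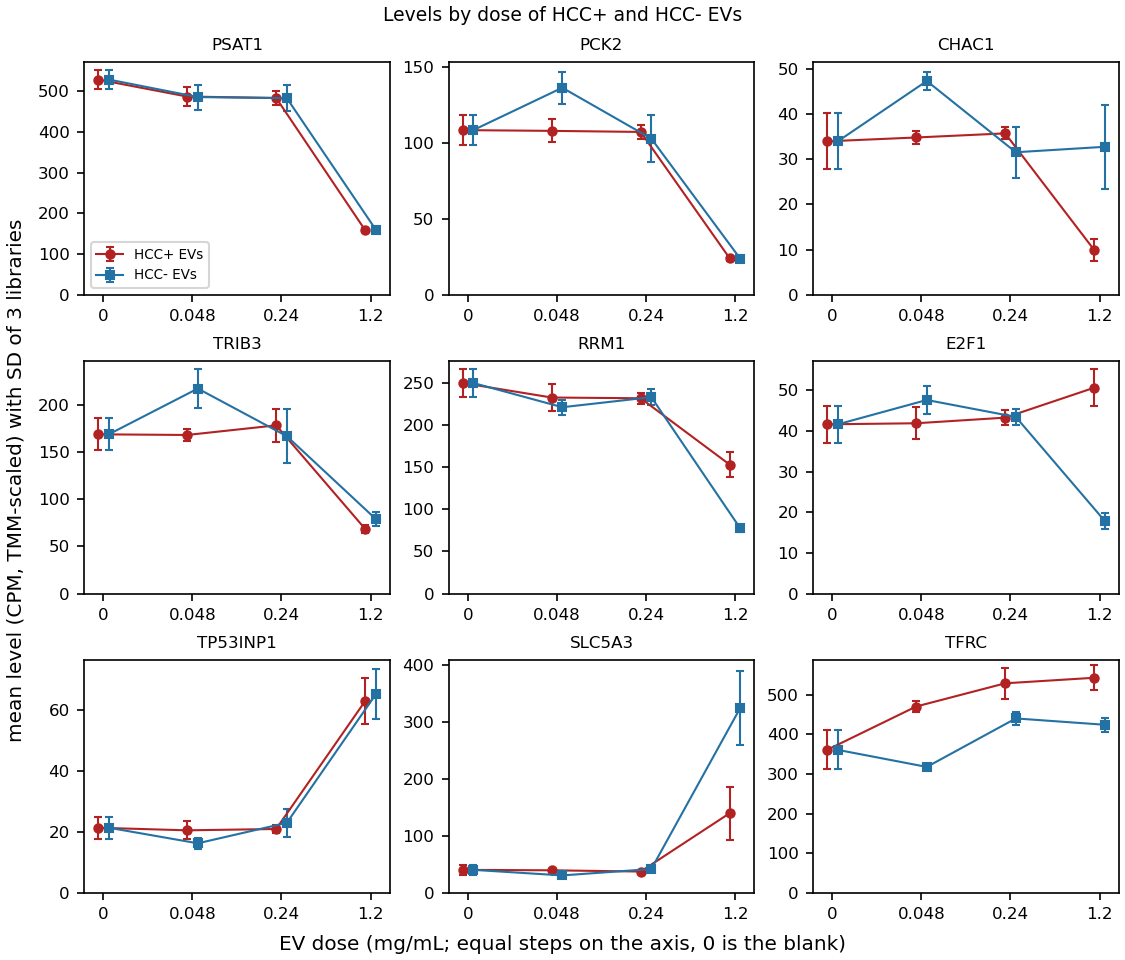
Mean level in CPM with SD of 3 libraries (y axes from 0) of 9 genes by dose of HCC+ EVs (red circles) and HCC- EVs (blue squares), with the blank at 0 (x axis, equal steps). At 1.2 mg/mL PSAT1 and PCK2 are low with both sources, CHAC1 is low with HCC+ EVs and near the blank with HCC- EVs, and mean TFRC lies above the blank at each dose of HCC+ EVs.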

How the data were processed

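RNA-seq counts of 21 HCT-116 libraries in 7 groups of 3 were used. The authors deposited raw counts per gene; reads were trimmed with cutadapt 3.4, aligned to GRCh38 with HISAT2 2.2.1 and counted with featureCounts 2.0.1, per the submitters' processing notes, which give no strand setting. Of 65065 annotated genes, 27406 had no count and 19556 passed edgeR's filterByExpr, holding 99.96% of counts. edgeR 4.0.16 (R 4.3.3) fitted 7 group means with TMM scaling and robust quasi-likelihood dispersion (14 residual degrees of freedom), with Benjamini-Hochberg adjustment over all tested genes. The standard error is the log2 fold change divided by the root of its F statistic. The fit was tested on simulated data.

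The 57 gene lists (1125 symbols, 3 unmatched, 1077 tested), the members and the rule for named genes were chosen with earlier results of these data known. The rule names the 15 largest called rises and falls without overlap whose mean was 1 log2 CPM or more, in each list the 5 called genes of lowest p and the 2 nearest to 0, all serine, folate and p53 genes, and called markers of other cell types, 438 genes in all, of which part is printed. SDCBP, CD9, CD82, RAB27B, GUSB, ASAH1, PDCD6IP, RAB7A, TAP2, B2M and others outside it were chosen after their values were seen.

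Alternatives were DESeq2 1.42.0, RLE size factors, total counts alone, no filter, a replicate block, only the groups compared, GC and length trends removed, and each library left out. A fit of the compared groups with the block was added after the data were seen. Replicate numbers did not pair the libraries compared: in the 3 contrasts with HCC+ EVs at 1.2 mg/mL, same-number correlations were -0.451 to 0.086, although 20 of 63 over all groups exceeded 0.1. Library totals ranged from 31219343 to 64012757 counts. Genes with near 0 counts in the blank (PECAM1, TEK, LYZ, H1-3) are given no fold change. Some genes are not reported here.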

Additional observations from a re-analysis of the deposited data

Results flagged for a closer look

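4 genes of the text were called in opposite directions with HCC+ and HCC- EVs at 1.2 mg/mL against the blank, and were called in the direct contrast of the sources. E2F1 averaged 50.6 ± 4.54 CPM with HCC+ EVs, 17.8 ± 1.88 CPM with HCC- EVs and 41.6 ± 4.53 CPM in the blank (SD, n = 3 each). Its log2 fold change was 0.28 with HCC+ EVs and -1.23 with HCC- EVs, and the sources differed by 1.51 (edgeR, adjusted p = 6.59e-14). The E2F1 values with HCC+ EVs overlapped those of the blank, and its rise was lost without any of several single libraries. SHMT1 averaged 84.7 ± 3.08 CPM with HCC+ EVs, 49.95 ± 1.07 CPM with HCC- EVs and 72.4 ± 2.11 CPM in the blank, at 0.23 and -0.54, with a difference of 0.76 (edgeR, adjusted p = 3.72e-12). The rise of SHMT1 with HCC+ EVs was lost in the fit of only the compared groups with a replicate block. INSR was at 0.34 with HCC+ and -0.30 with HCC- EVs, a difference of 0.64, and the hexokinase HK1 at 0.32 and -0.31, a difference of 0.63. Over all tested genes, 80 (0.409%) rose with HCC+ and fell with HCC- EVs, and 28 (0.143%) did the reverse, with the difference called in each. Both fold changes of a gene share the blank libraries, while the contrast of the sources does not use them.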

How the results depend on the processing

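With total counts alone, 4657 genes rose and 2069 fell with HCC+ EVs at 1.2 mg/mL against the blank, 2342 were higher and 4572 lower than with HCC- EVs, and 4072 were higher and 1794 lower than at 0.24 mg/mL. With only the 6 libraries and a replicate block, 2042 genes rose and 1890 fell. In that fit, these list counts were over 1.5 times smaller than in the report. Rises were 6 in place of 13 for lysosome, 7 in place of 11 for autophagy, 7 in place of 12 for BMP and TGF-beta, 9 in place of 14 for interferon, 4 in place of 7 for Wnt, 4 in place of 7 for ERBB and 3 in place of 6 for BCL2 family genes. For iron handling genes the rises were 3 in place of 5. Falls were 13 in place of 24 for ribosomal proteins, 11 in place of 17 for oxidative phosphorylation, 5 in place of 13 for proteasome, 3 in place of 8 for chaperonin, 9 in place of 14 for purine and pyrimidine, 7 in place of 12 for snoRNA host, 6 in place of 12 for cycle entry, 5 in place of 9 for unfolded protein response and 4 in place of 9 for NRF2 genes. That fit alone ended the calls of ATIC, BCL2L1, CLK3, ISG15 and SHMT1. The block over all 21 libraries gave 3091 rises and 3409 falls, and only the compared groups 2563 and 2583. The other settings (RLE, DESeq2, no filter, GC and length trends removed) kept the counts against the blank within 1.5 times. Leaving out 1 library gave 2398 to 3157 rises and 2522 to 3483 falls, lowest without replicate 1 of HCC+. Of 243 genes of the text against the blank, 34 lost a call under at least 1 setting and 0 called genes changed sign.

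Values near 0 that did not pass changed sign. ATF3 was at 0.028 and GADD45A at 0.018 with total counts, FAS at 0.06 with total counts and 0.08 with GC and length trends removed, where GADD45A was at 0.0 and GLDC at -0.057. Without 1 library, FAS ranged from -0.186 to 0.093 and GLDC from -0.013 to 0.043. Against HCC- EVs, PCK2 was at -0.016 with only the groups compared, -0.141 with total counts and -0.037 to 0.06 without 1 library, and PSAT1 at 0.005 without the filter and -0.035 to 0.019 without 1 library. TFRC against 0.24 mg/mL ranged from -0.012 to 0.101. The cause of these shifts was not tested. Among the 4889 tested genes of lowest level, 323 rose and 71 fell, and smaller changes there were not detectable at this depth with 3 libraries per group. Genes near 0 in the blank could be tested there through other groups.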
